A study of Mus musculus with 8 samples.

Results

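Glucose transport, glycolysis and glycogen genes were examined in heart muscle cells of newborn mice. The set held 38 genes chosen by symbol: 4 glucose transporters, 9 enzymes of upper glycolysis, 4 isoforms of the enzyme that makes and removes fructose 2,6-bisphosphate (PFK-2/FBPase-2), 7 enzymes of lower glycolysis, 3 lactate genes, 4 genes of glycogen synthesis, 6 of glycogen breakdown, and G6pdx, which opens the pentose phosphate pathway. All 38 were found among the 48440 entries of the count table, and all 38 were among the 13771 genes that passed the filter on low counts. RNA came from cardiomyocytes that the labels call purified, from C57BL6/J pups aged 2 days after birth, each of 4 litters giving a brother and a sister. No group carried a treatment or an altered allele, the cells of each library came from 1 heart, and the way the cells were purified is not given in the sources used here. The 2 comparisons that this design allows are male against female (4 libraries each) and litter against litter (2 libraries each).

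Cells take up glucose through transporters, phosphorylate it with hexokinase, and either split it to pyruvate by glycolysis or store it as glycogen. The fetal heart relies strongly on glycolysis and lactate, and around birth the heart shifts toward fatty acid oxidation while the insulin-responsive transporter and muscle isoforms of the enzymes gain over the fetal and ubiquitous ones. Many of these steps are carried out by families of isoforms from separate genes, so that the share of each isoform describes the state of the pathway as well as its total level does.

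Total counts per library ran from 14226342, in the female of litter 3, to 24910243. The 38 genes together took 1.20% and 1.26% of all counts in the male and female of litter 3 and 1.30% to 1.5% in the other 6 libraries. Values are given as CPM (read counts scaled to equal library totals), and levels of different genes are compared only as CPM per kilobase of the longest annotated transcript. All 12 cardiomyocyte markers were tested, and their sum was 78860 to 81670 CPM in litter 3 against 90510 to 101900 CPM elsewhere, with 5 lower and 1 higher in litter 3. Their median log2 difference in litter 3 was only -0.07. Myh6 and Actc1 were lower by -0.61 and -0.67, while Myh7 was higher by 2.74. The scaling to cardiomyocyte markers used below rests on this sum. Summed markers of other cells in litter 3 against the other litters were 32.4 to 51.8 against 108 to 243 CPM for fibroblasts, 18.0 to 19.6 against 16 to 148 CPM for endothelium, and 423 to 452 against 881 to 1141 CPM for mural cells, with 6 of 8, 5 of 8 and 5 of 7 markers lower in litter 3. Erythroid markers summed to 185 to 532 against 99.0 to 247 CPM, atrial markers to 1313 to 1611 against 210 to 834 CPM, epicardial markers to 23.0 to 23.2 against 13.6 to 18.8 CPM, and skeletal muscle markers to 2593 to 2632 against 2756 to 3596 CPM. The atrial sum was mostly Nppa, at 1176 and 1511 CPM in litter 3, and of 6 atrial markers 1 was called higher and 1 lower, with a median log2 difference of -0.22. The epicardial sum was mostly Tbx18, and of 5 epicardial markers 1 was called higher and 2 lower, with a median of -0.51. The skeletal muscle sum was mostly Ckm, at 2552 and 2574 CPM in litter 3. Of 6 skeletal muscle markers tested, 2 were called lower and 0 higher, with a median of -0.23. The mural sum was mostly Acta2, at 369 and 343 CPM in litter 3, and the mural markers Cspg4 and Tagln were not called there. Macrophage markers were at 6.6 to 10.1 against 5.64 to 9.57 CPM, Schwann and neural markers at 15.1 to 15.4 against 13.5 to 18.8 CPM, and the 5 neutrophil markers at 0 in litter 3 and at most 0.208 CPM elsewhere. Ly6g, a neutrophil marker, and Myod1, a skeletal muscle marker, had no counts in any library. Both libraries of litter 3 lay outside the range of the other 6 in the summed cardiomyocyte, fibroblast, mural, atrial, epicardial and skeletal muscle markers, and overlapped them in the endothelial, erythroid, macrophage and Schwann and neural sums. The part of cell makeup in the litter results was not tested. In such RNA from many cells, fewer cells of a type and less RNA per cell cannot be told apart.

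Levels of the members were first ordered per length of the longest transcript. Aldoa, the muscle aldolase that splits fructose 1,6-bisphosphate, was highest at 1222 ± 106 CPM per kilobase (SD, n = 8), followed by Eno3, the muscle enolase, at 846 ± 170.3 and Ldhb, the heart subunit of lactate dehydrogenase, at 779.5 ± 47.7. The ranges of Eno3 and Ldhb overlapped. Pgam2, the muscle phosphoglycerate mutase, at 493 ± 70.1, Tpi1, triosephosphate isomerase, at 477 ± 53.5, Pkm, pyruvate kinase, at 449 ± 85.9 and Ldha, the muscle subunit of lactate dehydrogenase, at 444 ± 82.7 CPM per kilobase came next and were not separated by their spread. Among glycogen genes Pygm, the muscle phosphorylase, had 243 ± 21.8 and Gyg, glycogenin, the primer of glycogen, 206 ± 36.4 CPM per kilobase. The lowest levels on this scale were those of Slc16a3, a lactate exporter typical of glycolytic cells, at 1.52 ± 0.52, Pfkfb3 at 1.14 ± 0.45 and Slc2a3, a transporter typical of neurons, at 0.291 ± 0.061 CPM per kilobase. Slc2a3 had 26 counts in the library where it was lowest, the fewest of any member. The order between the ends depended on the length used. Per kilobase of coding sequence, a scale added after the data were seen, Aldoa was still highest, at 1510 ± 131 CPM (SD, n = 8), and Slc2a3 lowest, at 1.23 ± 0.258, but Gapdh, glyceraldehyde-3-phosphate dehydrogenase, came second at 1059 ± 76.7 CPM, beside Eno3 at 1016 ± 204.7 and Ldhb at 1015 ± 62.1, from which it was not separated by the spread. Pgam2, at 545.8 ± 77.5 CPM, then lay below Tpi1, Ldha and Pkm, and Slc16a3, at 4.68 ± 1.60 CPM, was no longer among the 3 lowest. Spread over the 8 libraries, as the coefficient of variation of the per-length level, ran from 5.25% for Gpi1, glucose-6-phosphate isomerase, to 39.4% for Pfkfb3.

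**Figure D1:**
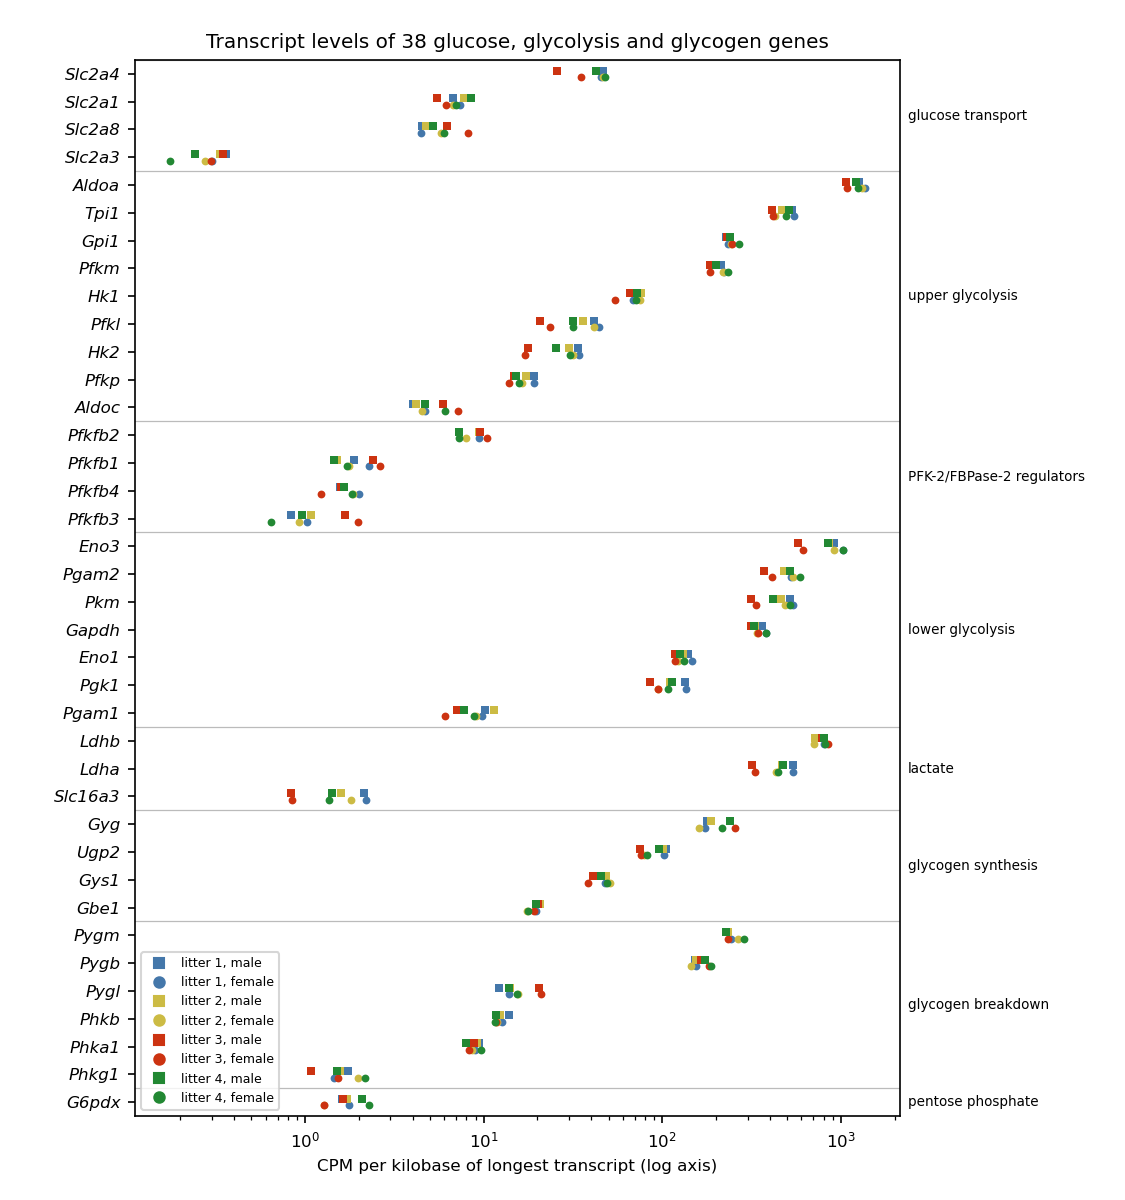
CPM per kilobase (log axis) of the 38 genes in each of the 8 libraries, grouped by role; squares are males, circles are females and colours are litters. Aldoa stands highest at 1222 CPM per kilobase on average and Slc2a3 lowest at 0.291, and the points of litter 3 lie to the left of the others for Hk2, Pfkl, Eno3, Ldha and Slc16a3 and to the right for Pfkfb3 and Pygl.

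One isoform supplied most of the per-length counts in each of the 9 families, taking the mean over 8 libraries. Aldoa made up 99.6% ± 0.125 of Aldoa and Aldoc (SD, n = 8), and Pgam2 made up 98.2% ± 0.304 of the phosphoglycerate mutases. Eno3 made up 86.5% ± 2.02 of the enolases, Pfkm, the muscle phosphofructokinase, 80.6% ± 2.50 of its family, and Slc2a4, the insulin-responsive transporter GLUT4, 75.8% ± 4.32 of the 4 transporters. Pfkfb2, the isoform best known from heart, made up 65.0% ± 2.59 of the PFK-2/FBPase-2 genes, Ldhb 63.9% ± 4.96 of lactate dehydrogenase and Pygm 57.5% ± 2.89 of the glycogen phosphorylases. In the hexokinases Hk2, the insulin-responsive muscle isoform, was the minor one at 28.0% ± 4.06, against 72.0% for Hk1, the ubiquitous isoform. Ubiquitous isoforms thus led among hexokinases, while muscle or heart isoforms led elsewhere. Annotated lengths set some of these shares: with coding length in place of transcript length the mean share of Pfkm was 69.2%, that of Hk2 34.0% and that of Pygm 50.3%.

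The shares were then compared between litters by an exact permutation test over the 105 ways to make 4 pairs of 8 libraries, one-sided, adjusted over the 9 families by the Benjamini-Hochberg method. The smallest p these ways allow is 0.00952, and Ldhb and Pfkm reached it. For Ldhb, the male and female gave 58.7% and 59.9% in litter 1, 60.6% and 62.0% in litter 2, 71.1% and 71.7% in litter 3, and 62.9% and 64.5% in litter 4. Both animals of litter 3 stood above all others and the litters did not overlap, so that 98.1% of the variance lay between litters (adjusted exact permutation p = 0.0429). For Pfkm, the shares were 78.1% and 77.7% in litter 1, 78.9% and 79.1% in litter 2, 83.8% and 83.3% in litter 3, and 81.0% and 83.1% in litter 4, with 94.6% of the variance between litters (adjusted exact permutation p = 0.0429). Litter 3 was again highest, and here the female of litter 4 came close to it. Both calls were lost with coding length or with no length, at an adjusted exact permutation p of 0.0643, although the range over litters was then no smaller.

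The other 7 shares did not pass the adjusted test. Slc2a4 had mean shares of 79.6%, 77.6%, 69.3% and 76.8% in litters 1 to 4, with both animals of litter 3 lowest (exact permutation p = 0.0381, adjusted 0.0686). Within that family the share of Slc2a8, an intracellular transporter, was 7.75%, 9.19%, 16.5% and 9.51%. Hk2 had mean shares of 32.5%, 29.1%, 22.5% and 27.9% (exact permutation p = 0.0286, adjusted 0.0643), and both animals of litter 3 were again below all others. Aldoa gave an exact permutation p of 0.0190 (adjusted 0.0571) over a range of 0.278 percentage points, and Eno3 one of 0.0952 (adjusted 0.143) over 4.43 points, with 83.4% in litter 3 and 87.1% to 87.8% elsewhere. Pygm, Pgam2 and Pfkfb2 gave adjusted exact permutation p-values of 0.294, 0.439 and 0.571. Without litter 3 the range over the remaining litters shrank from 12.1 to 4.47 points for Ldhb, from 5.69 to 4.16 for Pfkm, from 10.3 to 2.78 for Slc2a4, from 9.97 to 4.5 for Hk2, from 4.43 to 0.729 for Eno3, from 0.278 to 0.105 for Aldoa and from 5.99 to 3.46 for Pygm.

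**Figure D2:**
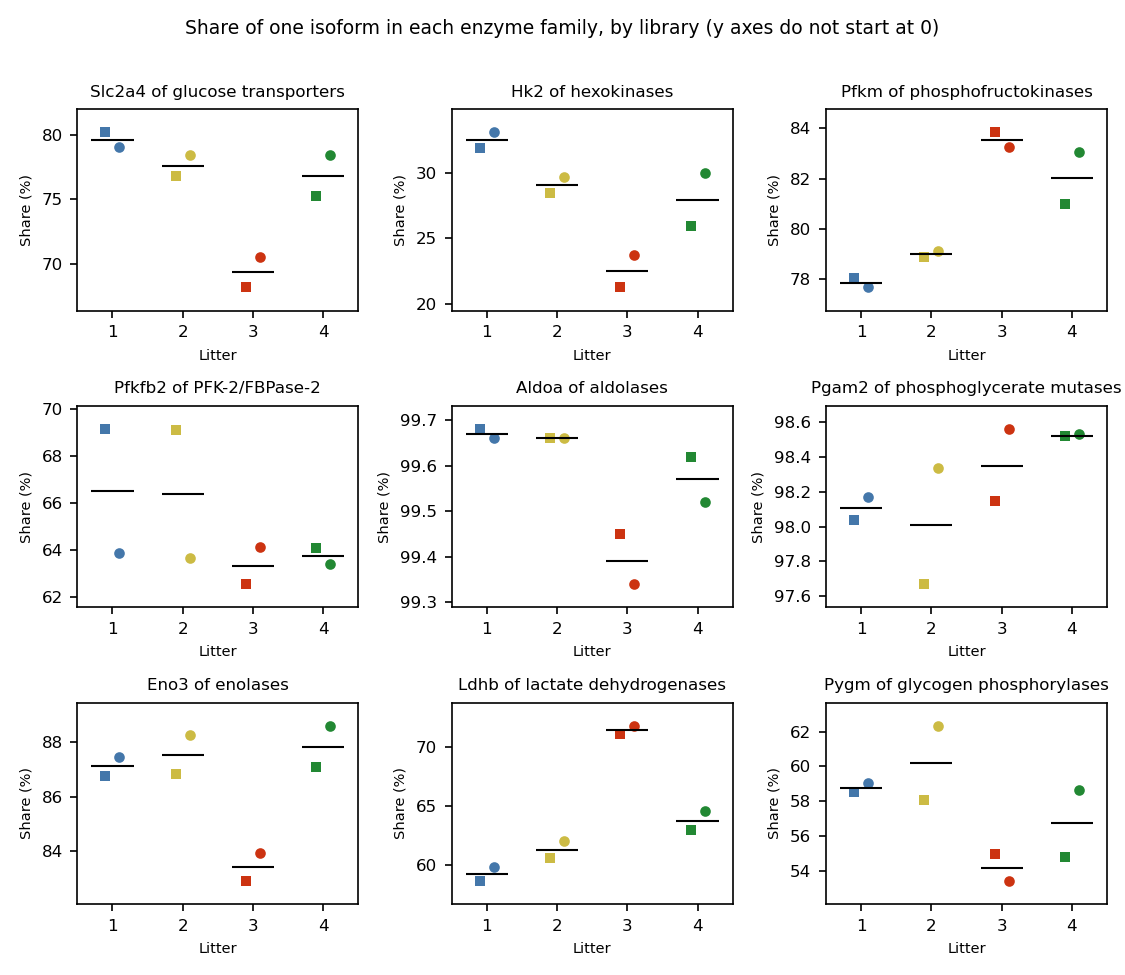
Share (%) of 1 isoform in the per-length counts of its family, by litter; squares are males, circles are females, bars are litter means, and the y axes do not start at 0. In litter 3 the shares of Ldhb (71.4%) and Pfkm (83.5%) were highest and those of Slc2a4 (69.3%), Hk2 (22.5%), Aldoa (99.4%) and Eno3 (83.4%) lowest.

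Litters differed in the level of 25 of the 38 genes, by edgeR's joint test of litter in a model with sex and adjustment over all 13771 genes, where 32.1% of all genes were called. Of these 25, 15 also had a log2 distance of 0.5 or more between their highest and lowest litter, against 17.9% of all genes. With the cardiomyocyte scaling described with the single litters, 18 of 38 were called against 39.1% of all genes, Ldhb among them, and the joint calls of Slc2a4, Hk1, Aldoa, Tpi1, Pgam2, Eno1, Gys1 and Ugp2 were lost. The median range was 0.47 for the members and 0.37 for all genes, from 0.09 for Gbe1, the glycogen branching enzyme, to 1.37 for Slc16a3. Litter 3 had the lowest mean of 25 members and litter 1 the highest of 20. When both libraries of litter 3 were left out, 8 of 38 members were called (13.7% of all genes): Pfkl, Pfkp, Pfkfb2, Pgk1, Ldha, Slc16a3, Gyg and Pygb. Without the female of litter 3 alone, the shallowest library, 16 members were called (21.8% of all genes). The labels give no date of preparation or sequencing, and such a date, if shared by a litter, cannot be told apart from litter.

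Each litter was then set against the mean of the other 3 in the same fit, in 4 comparisons that share libraries. In either direction, 14, 3, 25 and 3 members were called in litters 1 to 4 (13.3%, 4.18%, 28.3% and 10.5% of all genes). In litter 3, 18 members were lower (14.8% of all genes were) and 7 were higher (13.6% of all genes). In litter 1, 11 were higher (7.86% of all genes) and 3 lower (5.41%); in litter 2, 2 were higher (3.3%) and 1 lower (0.879%); in litter 4, 2 were higher (4.71%) and 1 lower (5.8%). The median log2 difference in litter 3 was -0.25 for the members and 0.00 for all genes, and in litter 1 it was 0.13 and 0.00. Both libraries of litter 3 lay below all other libraries for 19 members (16.4% of all genes) and above them for 4 (15.1%). The same counts were 10 above (8.89%) and 2 below (8.67%) in litter 1, 1 above (4.79%) and 1 below (3.6%) in litter 2, and 1 above (8.23%) and 3 below (8.8%) in litter 4. Without the female of litter 3, 12 members were lower and 3 higher, against 6.96% and 5.23% of all genes. With libraries scaled to the summed cardiomyocyte markers instead, a scaling chosen after the data were seen, the median of all genes in litter 3 moved up to 0.22 on the log2 scale, 9 members were lower and 11 higher, against 5.91% and 37% of all genes, and the median of the members was -0.03. The 11 higher were the 7 called before and Gpi1, Ldhb, Gbe1 and Pygb. With library size alone, 17 members were lower and 7 higher, against 12.3% and 17.6% of all genes. The 9 that remained lower under both scalings were Slc2a4, Hk2, Pfkl, Pgam1, Pgam2, Eno3, Pkm, Ldha and Slc16a3.

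**Figure D3:**
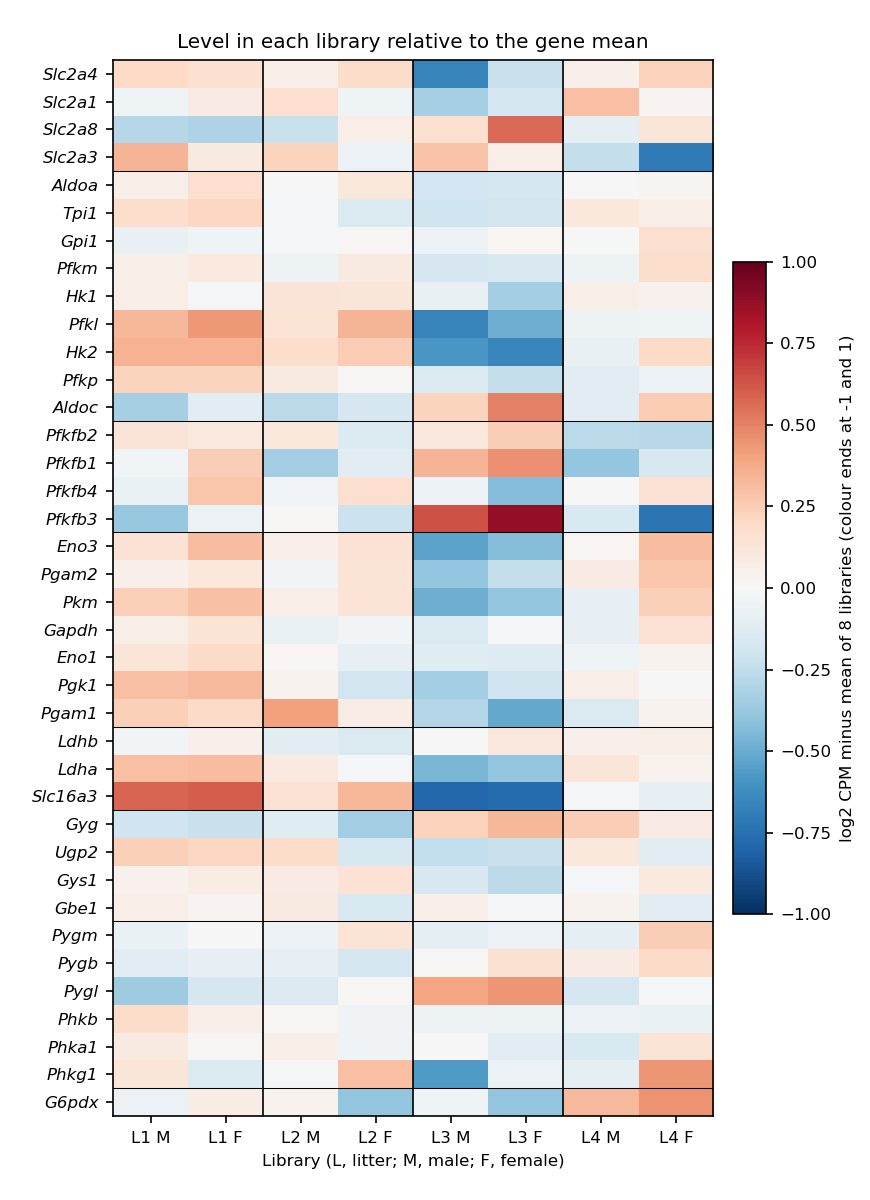
Log2 CPM of the 38 genes in each library minus the gene's mean over the 8 libraries (colour scale from -1 to 1), grouped by role, with litters set apart by lines. Columns of litter 3 are blue for most enzymes of glycolysis and red for Slc2a8, Aldoc, Pfkfb1, Pfkfb3, Gyg and Pygl, and columns of litter 1 are red for Hk2, Pfkl, Ldha, Pgk1 and Slc16a3.

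Among glucose transporters, litter 3 had less Slc2a4 and Slc2a1 and more Slc2a8. Slc2a4 had 149.5 and 145 CPM in the male and female of litter 1, 136 and 148 in litter 2, 82.0 and 112 in litter 3, and 135 and 153 in litter 4. Both animals of litter 3 were below all others, and its male lay furthest from the rest (log2 fold change -0.59, SE 0.08, adjusted p = 0.000376, 0.665-fold). Slc2a8 had 14.1 and 13.9 CPM in litter 1, 14.8 and 18.0 in litter 2, 19.3 and 25.5 in litter 3, and 16.1 and 18.7 in litter 4, so that litter 3 was highest without a wide gap between its male and the female of litter 4 (log2 fold change 0.48, SE 0.09, adjusted p = 0.00298). Slc2a1, the transporter GLUT1 of the fetal heart, had 21.8 and 23.9 CPM in litter 1, 25.2 and 21.9 in litter 2, 17.8 and 20.0 in litter 3, and 27.8 and 22.9 in litter 4. It was lower in litter 3 (log2 fold change -0.34, SE 0.10, adjusted p = 0.027) but did not pass the joint test of litter (adjusted p = 0.0772), and with the cardiomyocyte scaling, or without the female of litter 1, the male of litter 2 or the male of litter 3, it lost the call. The call of Slc2a8 was lost without the female of litter 3. Slc2a3 ranged from 1.09 to 2.25 CPM and passed neither test.

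In upper glycolysis 7 of 9 members were lower in litter 3, 1 was higher and 1 was not called, and the falls of the hexokinase Hk2 and the phosphofructokinase Pfkl were the largest. Hk2 had 187 CPM in both animals of litter 1, 166 and 175 in litter 2, 98.0 and 93.4 in litter 3, and 139 and 168 in litter 4. Both values of litter 3 lay far below the rest (log2 fold change -0.83, SE 0.07, adjusted p = 1.41e-05, 0.564-fold). Hk1 had 309.8 and 294 CPM in litter 1, 324 and 322 in litter 2, 281 and 233 in litter 3, and 308 and 306 in litter 4. It was also lowest in litter 3, by less (log2 fold change -0.27, SE 0.07, adjusted p = 0.0087), and was not called without the female of litter 3 or with the cardiomyocyte scaling.

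Pfkl, the liver-type phosphofructokinase, had 154 and 165 CPM in litter 1, 134 and 155 in litter 2, 77.0 and 87.3 in litter 3, and 118 CPM in both animals of litter 4. Litter 3 was lowest and litter 1 highest, without overlap between litters 3 and 4 (litter 3 log2 fold change -0.77, SE 0.06, adjusted p = 9.17e-06). Pfkp, the platelet type, had 165 CPM in both animals of litter 1, 150.3 and 142 in litter 2, 128 and 119.8 in litter 3, and 132 and 136 in litter 4, a smaller difference in the same order (log2 fold change -0.25, SE 0.06, adjusted p = 0.00818). Pfkm had 617 and 634 CPM in litter 1, 575 and 633 in litter 2, 529 and 533 in litter 3, and 574 and 669 in litter 4. It was lower in litter 3 (log2 fold change -0.21, SE 0.06, adjusted p = 0.0202), but did not pass the joint test of litter (adjusted p = 0.0704). The litter 3 call of Pfkm was also lost with library size alone and with the cardiomyocyte scaling, where its difference was 0.0085. The rise of the Pfkm share in litter 3 therefore stood beside a lower level of all 3 isoforms under the first scaling, with Pfkl furthest down. Without the female of litter 3 neither Pfkp nor Pfkm was called, without the male of litter 1 Pfkm was not, and Pfkp also lost its call with the cardiomyocyte scaling.

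Aldoa and Tpi1 were lower in litter 3 by -0.25 (SE 0.06, adjusted p = 0.00667) and -0.26 (SE 0.06, adjusted p = 0.00598) on the log2 scale, and neither was called with the cardiomyocyte scaling. Aldoa lost its call without the female of litter 3, and Tpi1 without the male. Aldoc, the brain aldolase, had 11.2 and 13 CPM in litter 1, 11.7 and 12.6 in litter 2, 16.4 and 20.0 in litter 3, and 13.1 and 16.8 in litter 4, so that the female of litter 4 lay within the range of litter 3 (log2 fold change 0.48, SE 0.09, adjusted p = 0.00258). Gpi1 did not pass, with 728 to 859 CPM over all libraries and a log2 fold change of -0.03 (SE 0.06), which was 0.0185 with library size alone. With the cardiomyocyte scaling Gpi1 was called higher in litter 3 (0.20, adjusted p = 0.0373).

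The PFK-2/FBPase-2 isoforms set the level of fructose 2,6-bisphosphate, the activator of phosphofructokinase, and 3 of 4 were higher in litter 3. Pfkfb3, the inducible isoform with the strongest kinase side, had 3.97 and 4.94 CPM in litter 1, 5.20 and 4.45 in litter 2, 8.03 and 9.49 in litter 3, and 4.64 and 3.11 in litter 4. Both animals of litter 3 stood clear of all others (log2 fold change 1.00, SE 0.17, adjusted p = 0.00136, 2.00-fold). Pfkfb1, the isoform of liver and skeletal muscle, was higher by 0.53 (SE 0.14, adjusted p = 0.0141), from 3.91 to 6.09 CPM in the other litters to 6.46 and 7.02 CPM in litter 3. Pfkfb2 had 43.2 and 42.3 CPM in litter 1, 42.4 and 35.9 in litter 2, 42.7 and 46.9 in litter 3, and 32.8 and 32.7 in litter 4. Its groups overlapped in litters 1 to 3, and it was called higher in litter 3 (log2 fold change 0.24, SE 0.08, adjusted p = 0.0397) and lower in litter 4 (-0.36, adjusted p = 0.0168). The litter 3 call of Pfkfb2 held in 9 of 15 alternative settings, and it was lost on leaving out either library of litter 1, either of litter 4, or the female of litter 2 or 3. The call of Pfkfb1 was lost without either library of litter 3. Pfkfb4 was not called, at 4.27 to 6.99 CPM.

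In lower glycolysis 5 of 7 members were lower in litter 3, and the other 2 were not called. Eno3 had 1433 and 1602 CPM in litter 1, 1344 and 1430 in litter 2, 896 and 958 in litter 3, and 1317 and 1605 in litter 4. Both animals of litter 3 lay far below every other library (log2 fold change -0.65, SE 0.06, adjusted p = 2.16e-05). Pkm had 1265 and 1315 CPM in litter 1, 1122 and 1178 in litter 2, 765 and 817 in litter 3, and 1017 and 1264 in litter 4, again with no overlap (log2 fold change -0.59, SE 0.07, adjusted p = 6.80e-05). Pgam2 was lower by -0.42 (SE 0.06, adjusted p = 0.000283), with 314 and 348 CPM in litter 3 and 402 to 496 CPM elsewhere. Pgam2 and Eno3 were both called higher in litter 4 by 0.24 (adjusted p = 0.0199) and 0.22 (adjusted p = 0.034). Both litter 4 calls were lost with library size alone, with the cardiomyocyte scaling and without the sex term in the model.

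Pgk1, phosphoglycerate kinase, the first ATP-yielding step, had 243 and 247 CPM in litter 1, 202 and 173 in litter 2, 156 and 172 in litter 3, and 207 and 198 in litter 4. The female of litter 2 nearly met the female of litter 3, and litter 1 was highest (litter 3 log2 fold change -0.36, SE 0.07, adjusted p = 0.00346; litter 1 log2 fold change 0.41, adjusted p = 0.00236). Pgam1, the ubiquitous mutase, had 18.0 and 17.4 CPM in litter 1, 20.2 and 16.1 in litter 2, 12.5 and 10.7 in litter 3, and 13.8 and 15.7 in litter 4, and was lowest in litter 3 (log2 fold change -0.53, SE 0.11, adjusted p = 0.00503). Gapdh, often used as a loading control, and Eno1, the ubiquitous enolase, were not called in litter 3, with log2 fold changes of -0.11 (SE 0.06, adjusted p = 0.196) and -0.17 (SE 0.06, adjusted p = 0.051), which turned to 0.12 and 0.05 with the cardiomyocyte scaling. Pgk1 shares 67.0% of the 100-base windows of its longest transcript with 1 or more other genes, Eno1 59.0%, Pgam1 39.7%, Pfkfb2 24.9%, Gapdh 18.2%, Pkm 9.82% and Ldhb 8.80%. How the authors counted reads that match several places is not given in the sources used here, so these levels are uncertain. The Pgk1 call was lost without the male of litter 3 or with the cardiomyocyte scaling, and the Pgam1 call without the female of litter 3. For each of these members, the gene that shares most windows had few counts of its own, at most 84 in any library. Other sharing genes were not read, and these counts do not show whether shared reads were dropped.

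Of the lactate genes, Slc16a3 and Ldha were lower in litter 3 and Ldhb was not called. Slc16a3, which carries lactate out of the cell, had 9.31 and 9.46 CPM in litter 1, 6.86 and 7.83 in litter 2, 3.60 and 3.65 in litter 3, and 6.14 and 5.88 in litter 4. The animals of a litter lay close together and the litters did not overlap (litter 3 log2 fold change -1.04, SE 0.15, adjusted p = 0.000348, 0.488-fold; litter 1 log2 fold change 0.79, adjusted p = 0.00152). Ldha, whose subunit favours the formation of lactate, had 975 and 979 CPM in litter 1, 849 and 785 in litter 2, 578 and 603 in litter 3, and 863 and 810.3 in litter 4. Litter 3 was lowest and litter 1 highest (litter 3 log2 fold change -0.57, SE 0.06, adjusted p = 4.67e-05; litter 1 log2 fold change 0.40, adjusted p = 0.000824). Ldhb, whose subunit favours the use of lactate, had 994 and 1050 CPM in litter 1, 938 and 920.2 in litter 2, 1020 and 1100 in litter 3, and 1052 and 1059 in litter 4. It was not called in litter 3 (log2 fold change 0.08, SE 0.06, adjusted p = 0.292) nor by the joint test of litter (adjusted p = 0.121). With the cardiomyocyte scaling, however, Ldhb was called higher in litter 3 (log2 fold change 0.31, adjusted p = 0.00669) and Ldha stayed lower (-0.34, adjusted p = 0.00541). Ldha was thus lower in litter 3 under both scalings, and the call of Ldhb depended on the scaling.

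Glycogen synthesis genes moved in both directions. Gyg had 341 and 335 CPM in litter 1, 359 and 307 in litter 2, 459.8 and 493 in litter 3, and 463 and 413 in litter 4, so that litters 3 and 4 overlapped above litters 1 and 2 (litter 3 log2 fold change 0.38, SE 0.07, adjusted p = 0.00152). Gys1, muscle glycogen synthase, had 173 and 176 CPM in litter 1, 178 and 186 in litter 2, 150.2 and 140.5 in litter 3, and 167 and 179 in litter 4, with both animals of litter 3 lowest (log2 fold change -0.28, SE 0.06, adjusted p = 0.00562). Gys1 shares 5.34% of its windows with the neighbouring gene Ruvbl2, and its call was lost with the cardiomyocyte scaling. Ugp2, which makes UDP-glucose, was lower by -0.31 (SE 0.07, adjusted p = 0.0086), with 200 and 204 CPM in litter 3 and 213 to 280 CPM elsewhere, and lost its call without the male of litter 3 or with the cardiomyocyte scaling. The calls of Gyg and Gys1 were lost without the female of litter 3. Gbe1 was not called, with a log2 fold change of 0.03 (SE 0.06), but was called higher with the cardiomyocyte scaling (0.25, adjusted p = 0.0294).

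In glycogen breakdown 1 of 6 members was called in litter 3. Pygl, the liver phosphorylase, had 38.2 and 43.4 CPM in litter 1, 44.2 and 49.1 in litter 2, 64.0 and 66.3 in litter 3, and 43.5 and 48.2 in litter 4, with both animals of litter 3 clear of the others (log2 fold change 0.56, SE 0.06, adjusted p = 7.07e-05). Pygm had 664 and 696 CPM in litter 1, 672 and 765 in litter 2, 651 and 669 in litter 3, and 653 and 825 in litter 4, and the litters overlapped (litter 3 log2 fold change -0.11, SE 0.07, adjusted p = 0.253). Pygb, the brain phosphorylase, passed the joint test of litter (adjusted p = 0.0317) with a log2 fold change of 0.11 (SE 0.06) in litter 3. The joint call of Pygb was lost with library size alone, without either library of litter 1, without the female of litter 2, 3 or 4, and without the whole of litter 1 or 4, and with the cardiomyocyte scaling Pygb was called higher in litter 3 (0.34, adjusted p = 0.00392). The phosphorylase kinase subunits Phka1, Phkb and Phkg1, which switch phosphorylase on, had log2 fold changes of -0.07, -0.07 and -0.43 (SE 0.08, 0.06 and 0.21) and were not called. With the cardiomyocyte scaling Pygm, Phka1 and Phkb turned to 0.12, 0.15 and 0.15, and none is given a direction here. Phkg1 shares 23.3% of its windows with the overlapping gene Sumf2, which had 72 to 143 counts. G6pdx had 4.25 and 4.65 CPM in litter 1, 4.53 and 3.37 in litter 2, 4.29 and 3.37 in litter 3, and 5.53 and 6.04 in litter 4. Both animals of litter 4 were highest, but neither litter 3 (adjusted p = 0.275) nor litter 4 (log2 fold change 0.51, adjusted p = 0.0685) was called.

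**Figure D4:**
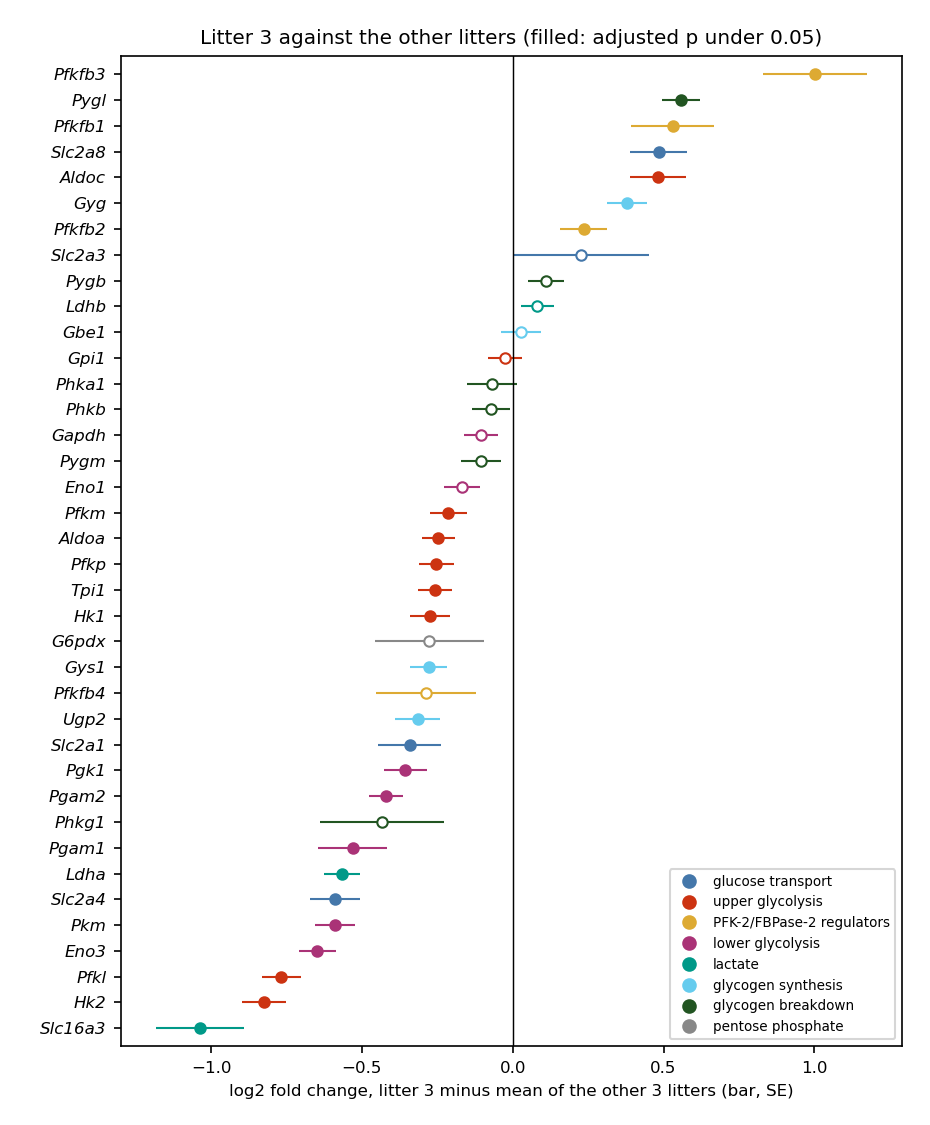
Log2 fold change of litter 3 against the mean of the other 3 litters with its standard error, ordered by size and coloured by role; filled points have an adjusted p under 0.05 (edgeR). Slc16a3, Hk2, Pfkl and Eno3 lie lowest (-1.04 to -0.65), Pfkfb3 and Pygl highest (1.00 and 0.56), and 13 open points were not called.

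In litter 1 the 11 members called higher were Hk2, Pfkl, Pfkp, Tpi1, Pgk1, Eno1, Eno3, Pkm, Ldha, Slc16a3 and Ugp2, and the 3 lower were Slc2a8, Gyg and Pygl. The largest were Slc16a3 at 0.79, Pfkl at 0.51 (adjusted p = 0.000244) and Hk2 at 0.46 (adjusted p = 0.00114) on the log2 scale. These counts depended on both animals: without the male of litter 1, 4 members were called in either direction (2.58% of all genes), and without its female 5 (2.96%). In litter 2, Hk2 and Pfkl were called higher by 0.28 (adjusted p = 0.0377) and 0.32 (adjusted p = 0.00986) and Gyg lower by -0.31 (adjusted p = 0.0254), and the count fell to 1 when the female of litter 1 (3.06% of all genes) or the male of litter 2 (1.74%) was left out and to 0 when the litter 2 female was (1.1%). In litter 4, Pgam2, Eno3 and Pfkfb2 were called, and the count fell to 1 when the female of litter 1 (5.33% of all genes) or the male of litter 4 (2.3%) was left out and to 0 when the litter 4 female was (3.11%). No member was higher in litter 4 with library size alone, the cardiomyocyte scaling or no sex term (1.9%, 0.661% and 2.31% of all genes). In litter 2 the cardiomyocyte scaling left no member called (2.61% of all genes), and the model without the sex term left 1 (2.65%). For litters 1, 2 and 4 the mean of the other 3 includes litter 3. With litter 3 left out, the joint calls of Hk2, Tpi1, Eno1, Eno3, Pkm, Ugp2, Slc2a8, Pygl and Pgam2 were lost. Those of Pfkl, Pfkp, Pgk1, Ldha, Slc16a3, Gyg and Pfkfb2 were kept.

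Promoters of 5 members are shown to set the 2 lactate dehydrogenase genes beside each other and the 2 largest falls beside the rise with the smallest adjusted p. They are RefSeq windows of 300 bases on GRCm38.p6, from 250 before to 50 after the annotated start, and 36 of the 38 genes had at least 1 window. Capitals mark matches on either strand to ACGTG and GCGTG, core letters bound by hypoxia-inducible factors, and to a MEF2-type pattern (CTA, any 4 bases, TAG), and CACGTG overlaps ACGTG. Ldha had 2 windows, of which the upstream one is shown.
Ldha, chr7:46845554-46845853, plus strand: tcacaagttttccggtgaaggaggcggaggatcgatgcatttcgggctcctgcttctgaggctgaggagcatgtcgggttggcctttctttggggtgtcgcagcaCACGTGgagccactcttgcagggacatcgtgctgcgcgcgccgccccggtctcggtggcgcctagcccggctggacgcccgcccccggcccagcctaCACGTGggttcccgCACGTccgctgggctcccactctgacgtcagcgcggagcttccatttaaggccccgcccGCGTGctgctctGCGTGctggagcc
Ldhb, chr6:142507908-142508207, minus strand: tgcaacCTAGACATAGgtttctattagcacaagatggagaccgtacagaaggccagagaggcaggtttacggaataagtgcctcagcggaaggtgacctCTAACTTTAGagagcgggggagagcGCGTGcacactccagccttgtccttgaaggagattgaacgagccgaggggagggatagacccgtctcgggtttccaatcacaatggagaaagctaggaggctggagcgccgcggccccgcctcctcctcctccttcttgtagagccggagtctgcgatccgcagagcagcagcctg
Hk2, chr6:82774405-82774704, minus strand: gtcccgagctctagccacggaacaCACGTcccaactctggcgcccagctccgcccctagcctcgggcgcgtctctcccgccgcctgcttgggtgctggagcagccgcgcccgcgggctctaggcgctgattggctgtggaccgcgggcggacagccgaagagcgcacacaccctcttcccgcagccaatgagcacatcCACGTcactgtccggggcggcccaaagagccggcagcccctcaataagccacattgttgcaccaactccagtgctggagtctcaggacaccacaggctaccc
Slc16a3, chr11:120948817-120949116, plus strand: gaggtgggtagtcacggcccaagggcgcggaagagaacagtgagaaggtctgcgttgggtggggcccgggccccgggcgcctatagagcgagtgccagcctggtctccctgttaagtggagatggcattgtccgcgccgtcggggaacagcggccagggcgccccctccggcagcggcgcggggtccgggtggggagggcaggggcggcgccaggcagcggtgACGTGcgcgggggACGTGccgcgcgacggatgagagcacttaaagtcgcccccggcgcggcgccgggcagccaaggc
Pygl, chr12:70227634-70227933, minus strand: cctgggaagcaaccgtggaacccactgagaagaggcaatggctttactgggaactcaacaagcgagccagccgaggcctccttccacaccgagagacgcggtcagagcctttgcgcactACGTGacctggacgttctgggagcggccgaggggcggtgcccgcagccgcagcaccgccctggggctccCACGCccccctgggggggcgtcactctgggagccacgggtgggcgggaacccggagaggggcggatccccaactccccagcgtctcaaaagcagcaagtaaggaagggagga

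The Ldha window held 5 matches to ACGTG counted over both strands, 4 of which fall in its 2 copies of CACGTG, and 2 matches to GCGTG. The Ldhb window held no ACGTG, 1 GCGTG and 2 of the MEF2-type pattern. Hk2 and Slc16a3 held 2 ACGTG each and no GCGTG, and Pygl, which moved the other way, held 1 of each. ACGTG was present in 24 of the 54 member windows (44.4%), in 19.6% of all 32851 windows and in 25.2% of the 12623 windows of genes tested here. By gene it was present in 20 of 36 members, against 29.5% of the 9866 tested genes with a window: 11 of the 17 lower in litter 3, 5 of the 7 higher and 4 of the 12 not called. GCGTG was in 57.4% of member windows, 32.4% of all and 50.3% of those of tested genes, CACGTG in 9.26%, 7.15% and 9.86%, and the MEF2-type pattern in 3.7%, 3.69% and 3.25%. By gene GCGTG was in 25 of 36 members, against 56.3% of tested genes. It was in 9 of the 17 lower in litter 3, 7 of the 7 higher and 9 of the 12 not called. A match describes letters in the window and is neither a site nor a cause.

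Male and female hearts did not differ in any of the 38 genes at an adjusted p under 0.05 (0.0436% of all genes were called, 6 of 13771). DESeq2 also called 0 members, and 0 of 38 had an unadjusted edgeR p under 0.05, against 2.22% of all genes. Log2 fold changes of male minus female ran from -0.28 (SE 0.21) for Phkg1 to 0.30 (SE 0.24) for Slc2a3, with a median of -0.05 for the members and -0.00 for all genes. Of the 4 members on the X chromosome, Pgk1 differed by 0.03 (SE 0.15), Pfkfb1 by -0.20 (SE 0.21), Phka1 by 0.00 (SE 0.08) and G6pdx by 0.08 (SE 0.21). Only Gbe1 had sexes that did not overlap (2.07% of all genes): its males had 73.6 to 76.7 CPM and its females 64.8 to 73.3 CPM, and the log2 difference was 0.12 (SE 0.07, adjusted p = 0.9996).

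Comparing the male and female within each litter narrowed the errors. With litter as a block, 0 of 38 members had an adjusted p under 0.05 (0.211% of all genes), and the lowest was that of Eno3 (adjusted p = 0.302). At an unadjusted p under 0.05 there were 12 of 38 members, against 11.6% of all genes. Lower in males were Slc2a4, Slc2a8, Pfkl, Aldoc, Gapdh, Pgam2, Eno3, Pkm, Pygm and Pygl, and higher were Gbe1 and Ugp2. Eno3 was lower in males by -0.16 (SE 0.05), Aldoc by -0.24 (SE 0.08), Pgam2 by -0.14 (SE 0.05) and Pygm by -0.16 (SE 0.06) on the log2 scale, each with the male below its sister in 4 of 4 litters. None of these holds after adjustment. Isoform shares did not pass by sex either. Exact permutation p-values over 35 splits, two-sided and not paired by litter, ran from 0.143 to 0.886, where 0.0286 is the smallest possible. With transcript length the largest difference was that of Pfkfb2, at 66.2% ± 3.40 in males and 63.8% ± 0.319 in females (SD, n = 4). The Hk2, Pgam2, Eno3 and Ldhb shares were lower in the male in 4 of 4 litters. Sign flips of the 4 pairs gave each of these an exact p of 0.125, the smallest possible.

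**Figure D5:**
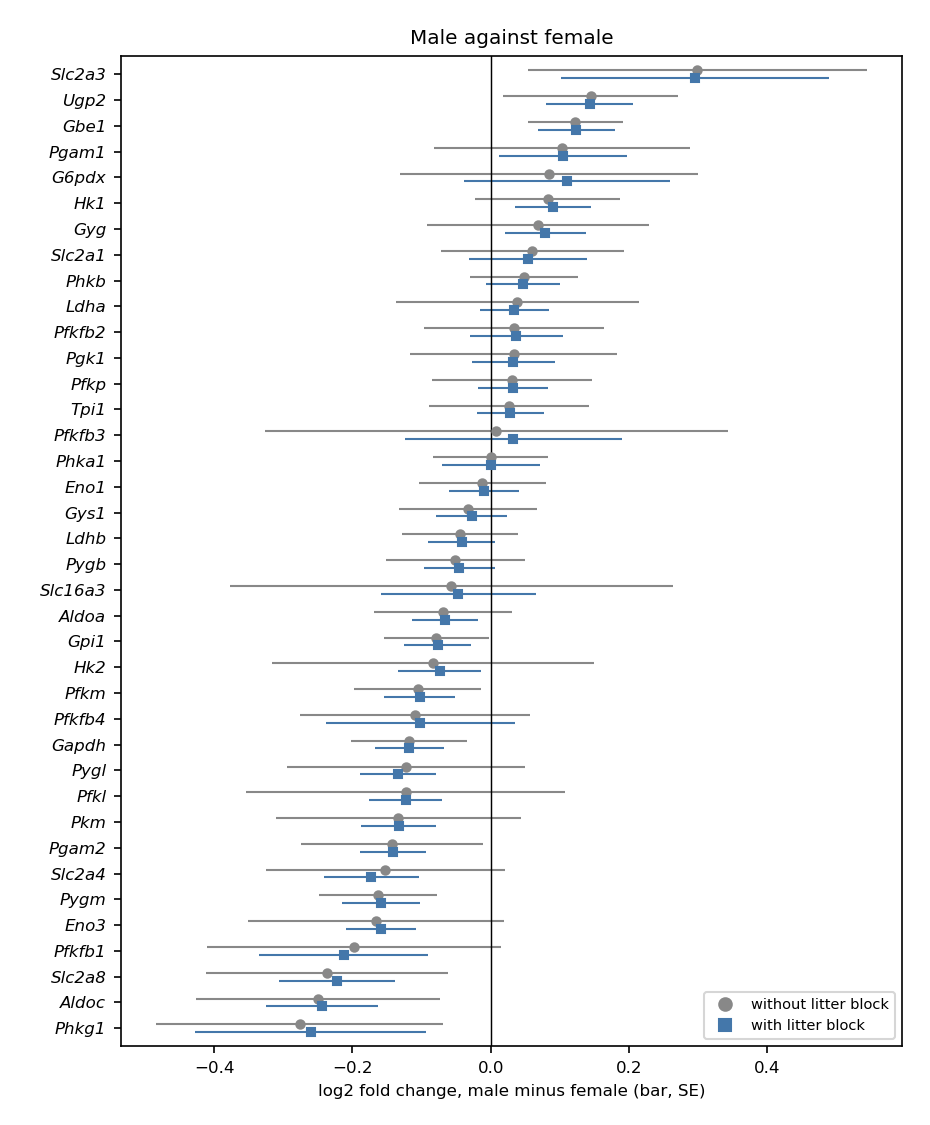
Log2 fold change of male minus female with its standard error for the 38 genes, without a litter block (grey circles) and with it (blue squares). Values run from -0.28 for Phkg1 to 0.30 for Slc2a3, and no gene passed the adjusted threshold in either fit.

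Other genes of glucose metabolism that are not among the 38 were read from a list of 65, of which 51 were tested. Of these, 19 passed the joint test of litter (32.1% of all genes did), 12 were lower and 9 higher in litter 3, against 14.8% and 13.6% of all genes. Txnip, a brake on glucose uptake, had 681 and 669 CPM in litter 1, 604 and 569 in litter 2, 1391 and 1304 in litter 3, and 759 and 419.5 in litter 4. Both animals of litter 3 stood far above the rest (log2 fold change 1.14, SE 0.12, adjusted p = 4.28e-05). Pck2, the mitochondrial enzyme that makes phosphoenolpyruvate, was higher by 1.06 (SE 0.09, adjusted p = 1.43e-05) and Sord, sorbitol dehydrogenase, by 0.30 (SE 0.06, adjusted p = 0.0039). Bsg, the partner protein that lactate transporters need at the membrane, was lower by -0.39 (SE 0.05, adjusted p = 0.000339), Mpc2, a subunit of the mitochondrial pyruvate carrier, by -0.35 (SE 0.06, adjusted p = 0.00123) and Akr1b3, aldose reductase, by -0.32 (SE 0.06, adjusted p = 0.00344). The lactate transporter Slc16a1, at 217 and 203 CPM in litter 3 and 176 to 260 CPM elsewhere, was not called there (-0.06, SE 0.09, adjusted p = 0.63). Its relative Slc16a7 was lower by -0.46 (SE 0.15, adjusted p = 0.039). A list of 18 hypoxia-responsive genes outside the pathway had 17 tested, of which 13 passed the joint test of litter, 7 were higher and 7 lower in litter 3, where 13.6% and 14.8% of all genes were. Among them Hif3a and Mxi1 were higher by 1.75 (SE 0.07) and 1.015 (SE 0.07), and Higd1a and Epas1 lower by -0.71 (SE 0.06) and -0.75 (SE 0.09) on the log2 scale.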

How the data were processed

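The authors deposited whole-number read counts per gene symbol for 8 libraries. Reads were aligned with STAR 2.7.3a to mm10, per the submitters' processing notes; the counting program, its strand setting and its treatment of reads with several matches are not given in the sources used here. Per the labels' protocols a stranded total RNA kit was used, while the labels name the molecule as polyA RNA. No column belonged to another sample (0 such columns).

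Counts were filtered with filterByExpr on sex, scaled by TMM and tested in R 4.3.3 with edgeR 4.0.16 (quasi-likelihood F test, Benjamini-Hochberg adjustment over 13771 genes, threshold 0.05). The sex model had 6 residual degrees of freedom, and the litter model, with sex as a term, had 3. Standard errors are the log2 fold change over the square root of F. In the litter model, edgeR p-values rest on differences between brother and sister within litters after the mean sex difference. In the sex model without a litter block, differences between litters are also part of the spread. Isoform shares used counts per kilobase of the longest GENCODE transcript on GRCm38 and exact permutation tests. DESeq2 1.42.0, other scalings, filters, depths and lengths, a litter model without the sex term, and each library left out, were alternatives.

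Values of every library were given for the 14 members with the smallest adjusted p in the litter test among those whose litter means spanned 0.5 log2 units or more, for the families of shares that passed, and for 8 members by name. Members and lists (other pathway, hypoxia-responsive, and cell type markers) were chosen with earlier results of these data known. Sample numbers mark the litter in the labels and so pair brother with sister. Correlations between the male and female of a litter after removal of sex means were 0.506, 0.503, 0.696 and 0.367, against -0.482 to 0.27 between litters, and no library repeated another within sampling noise (chi-square per degree of freedom 9.57 to 44.9 within a sex). Tests were run on simulated data of 13771 genes, 200 of them changed 2-fold. The sex test recovered 97% with 3.48% of calls false, the joint litter test 84% with 5.62%, and the litter 3 comparison 89.5% with 5.79%. In the real libraries, the variation beyond counting noise was 17.3% in the sex model and 7.28% in the litter model. Whether the recovery rates hold at the spread of the real libraries was not tested.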

Additional observations from a re-analysis of the deposited data

Results flagged for a closer look

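Among 94 groups of 4 libraries (values and shares of members, by sex), 3 held a library that stood apart from the other 3 by Dixon's test, where about 4.7 are expected by chance. The litter 4 male had 32.8 CPM of Pfkfb2 while males of litters 1 to 3 had 42.4 to 43.2 CPM, and the litter 4 female had 32.7 CPM. The Slc2a4 share was 70.5% in the female of litter 3, against 78.4% to 79.0% in the other females. The Eno3 share was 82.9% for the litter 3 male and 86.8% to 87.1% for males of the remaining litters.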

How the results depend on the processing

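With litter as a replicate block, 29 genes were called by sex in place of 6, and 0 members in both; sign flips of the 4 litter pairs gave no share an exact p under 0.125, the smallest possible. Scaling to the cardiomyocyte list (chosen after the data were seen) gave 0 members in litter 2 (2.61% of all genes), and 11 higher (37% of all genes) and 9 lower (5.91%) in litter 3. It turned Gpi1 to 0.20 (adjusted p = 0.0373), Pfkm to 0.0085, Gapdh to 0.12, Eno1 to 0.0533, Pygm to 0.12, Phka1 to 0.15 and Phkb to 0.15 on the log2 scale. With library size alone Gpi1 was 0.0185, and with 1 library left out at a time Gbe1 ran from -0.0128 to 0.0677. With no filter on low counts 7 members were called in litter 4 (8.34% of all genes). Without the sex term in the litter model, 11, 1, 23 and 1 members were called in litters 1 to 4. The shares of all genes were 9.13%, 2.65%, 24.2% and 6.06%. This model was not read for single genes and is not among the 15 alternatives named below. The range of the Pfkm share over litters was 6.2 points with coding length and 6.19 without length, and that of Ldhb 12.9 and 13.1, at an adjusted exact permutation p of 0.0643. The causes were not tested.

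Leaving out 1 library or litter at a time gave 1898 to 4586 genes and 8 to 26 members by litter. With 1 library left out, members called numbered 4 to 15 in litter 1 (2.58% to 13.4% of all genes), 0 to 4 in litter 2 (1.1% to 5.37%), 15 to 25 in litter 3 (12.2% to 27.3%; 3 to 7 higher, 12 to 19 lower) and 0 to 4 in litter 4 (2.3% to 9.33%). Ranges of shares over litters were 2.78 to 10.3 points for Slc2a4, 4.5 to 9.97 for Hk2, 4.16 to 5.69 for Pfkm, 0.105 to 0.278 for Aldoa, 0.729 to 4.43 for Eno3, 4.47 to 12.1 for Ldhb and 3.46 to 5.99 for Pygm. The sex difference in share (male minus female), not paired by litter, changed sign for Pfkm (-1.47 to 0.489 points), Ldhb (-3.80 to 1.19), Slc2a4 (-3.52 to 0.816) and Aldoa (-0.0093 to 0.11). DESeq2 called 24 members by litter (23.6% of all genes) and 0 by sex (0.0654%). Hk2, Pfkl, Eno3, Pkm, Ldha, Pgam2, Slc2a4, Slc16a3, Pfkfb3, Pygl and Aldoc kept their litter 3 call in all 15 alternatives. The female of litter 3 is the shallowest library, and Slc2a3 with 26 counts limits what can be seen in the lowest members.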
